A study of Mus musculus with 10 samples.

Results

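The genes described here encode NF-kB itself and its immediate controls: the subunits *Rel*, *Rela*, *Relb*, *Nfkb1* and *Nfkb2*, the inhibitors *Nfkbib* and *Nfkbie*, and the IkB kinase (IKK) genes *Ikbkb*, *Chuk* and *Ikbkg*. They were taken by symbol from a table of RNA-seq counts with 26146 genes, and all 10 were among the 14165 genes with enough counts to be tested. The RNA came from hematopoietic stem cells (HSCs), sorted by flow cytometry as LSK CD48- CD150+ cells from C57BL/6J mice aged 8 to 12 weeks, with 1 library per mouse according to the design. Control (Cited2 CTL) mice (n = 5) carry floxed *Cited2* alleles and no Cre, and are labelled wildtype. Cited2 CKO mice (n = 5) carry the same floxed alleles with *Vav-iCre*, which is active throughout the hematopoietic system and not in HSCs alone, so the sorted HSCs came from marrow in which the gene was targeted in other blood cells too. *Cited2* encodes a transcriptional co-regulator that binds CBP and p300, and the comparison addresses how its loss alters RNA levels in adult HSCs.

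NF-kB is a dimer of Rel-family proteins that is held in the cytoplasm by IkB inhibitors. Inflammatory signals activate the IKK complex, which marks the inhibitors for degradation and so releases the dimer to the nucleus. *Rela*, *Rel* and *Relb* encode subunits with a transactivation domain, whereas *Nfkb1* and *Nfkb2* encode precursors whose processed forms supply the DNA-binding partners. In blood-forming cells the pathway is known for responses to inflammatory cytokines and for cell survival. Most of its regulation acts on proteins, which RNA counts do not measure.

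Each library held between 3058690 and 4548795 counts in total. *Cited2* was measured at 101 to 222 CPM (counts relative to TMM-normalized library size) in the Cited2 CTL libraries and at 3.80 to 8.30 CPM in CKO 1, CKO 2, CKO 4 and CKO 5. The library labelled CKO 3 had 120 CPM, within the Cited2 CTL range, so the pathway genes named below are also given without it. CKO 2 combined an *Xist* level of 1307 CPM with 329 CPM of Y-linked transcripts, whereas the other libraries had mainly one or the other. In CTL 2, CTL 4 and CKO 3 this was *Xist* (1316, 1250 and 1299 CPM). In CTL 1, CTL 3, CTL 5, CKO 1, CKO 4 and CKO 5 it was Y-linked transcripts (554 to 715.5 CPM). Whether CKO 2 holds RNA of more than 1 mouse was not tested. The 8 HSC and gate markers summed to 1410 to 1662 CPM in controls and 1293 to 1514 CPM in Cited2 CKO libraries. Among them *Cd48*, which the sort gates out, was higher in Cited2 CKO libraries (log2 fold change 1.18, adjusted p = 0.0264 by edgeR). The 9 monocyte and macrophage markers summed to 55.1 to 88.9 CPM in controls and to 76.7 to 148 CPM in Cited2 CKO libraries, and none of them was at 0 in every library. *Itgam* alone ranged from 9.85 to 26.5 CPM and from 22.35 to 62.1 CPM. The ranges of *C1qb* (5.59 to 10.4 and 4.84 to 10.1 CPM) and *C1qc* (3.72 to 8.59 and 2.84 to 9.40 CPM) largely coincided. The 10 neutrophil and granulocyte progenitor markers summed to 188 to 745 CPM and 148 to 475 CPM, with *Ly6g* at 0 in all libraries. For the 7 T and NK cell markers, of which 3 had enough counts to be tested, the sums were 75.02 to 112 CPM and 99.1 to 128 CPM. *Nkg7* alone ranged from 47.8 to 96.3 CPM in controls and from 82.5 to 124 CPM in Cited2 CKO libraries. *Klrb1c* went the other way, at 7.07 to 24.4 CPM and 0 to 16.9 CPM. *Cd3d*, *Cd3e*, *Cd3g* and *Cd8a* were at no more than 3.09 CPM in any library. B cell markers summed to 51.45 to 90.8 CPM in controls and 54.9 to 77.3 CPM in Cited2 CKO libraries. Erythroid markers summed to 43.6 to 107.7 CPM and 42.8 to 61.5 CPM, and megakaryocyte and platelet markers to 426 to 516.5 CPM and 419.5 to 568 CPM. The part of such cells in the values reported here was not tested, and in bulk RNA fewer cells of a type and less RNA per cell cannot be told apart.

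The members lie on 7 chromosomes of GRCm38. *Rela* (chr19:5637483-5648130), *Chuk* (chr19:44073335-44107480) and *Nfkb2* (chr19:46304320-46312385) share chromosome 19, and *Relb* (chr7:19606217-19629438) and *Nfkbib* (chr7:28758251-28767512) share chromosome 7. *Rel* occupies chr11:23736847-23770970, *Nfkb1* chr3:135584655-135691547, *Nfkbie* chr17:45555703-45563169, *Ikbkb* chr8:22659212-22706589 and *Ikbkg* chrX:74393290-74453854. Exons of 3 members overlap exons of protein-coding genes on the opposite strand, *Nfkb2* with *Psd* over 299 bases, *Nfkbib* with *Ccer2* over 314 and *Sirt2* over 42 bases, and *Ikbkg* with *G6pdx* over 418 bases. The sources used here do not state whether reads were counted by strand, so reads in those stretches cannot be assigned with certainty.

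Several NF-kB genes are known targets of NF-kB, so the promoters were searched for its binding motif. RefSeq promoter windows (GRCm38.p6, from 250 bases before to 50 after each start) were found for 7 of the 10 members, namely *Rel*, *Rela*, *Nfkb2*, *Nfkbib*, *Nfkbie*, *Chuk* and *Ikbkg*. The kappaB consensus, searched on both strands, was in the windows of 3 members (*Rel*, *Nfkb2* and *Nfkbie*) and of 5.14% of all 27025 genes. It was in 4.51% of all 32851 windows. The 7 members have 12 windows, 3 of them of *Nfkb2* and 4 of *Ikbkg*. The windows of *Rel* (75% GC) and *Nfkb2* (64.7% to 68%) are richer in GC than the median window (52.7%). The part of window number and GC content in the matches was not tested. The matches are shown in the direction of the gene, with the matched bases in capitals and 10 bases on either side, because they are where these genes carry the letters that NF-kB reads. Where matches overlap, 1 is shown. A match is not evidence of binding.
*Rel*, chr11:23771042-23771071, minus strand: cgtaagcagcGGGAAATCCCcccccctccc
*Nfkb2*, chr19:46304688-46304717, plus strand: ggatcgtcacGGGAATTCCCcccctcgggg
*Nfkb2*, chr19:46304716-46304745, plus strand: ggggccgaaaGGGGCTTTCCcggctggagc
*Nfkb2*, chr19:46305449-46305478, plus strand: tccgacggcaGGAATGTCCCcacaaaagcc
*Nfkb2*, chr19:46305695-46305724, plus strand: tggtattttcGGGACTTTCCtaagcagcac
*Nfkbie*, chr17:45555584-45555613, plus strand: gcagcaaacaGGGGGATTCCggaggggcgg
The motif of the general promoter factor Sp1, GGGCGG, was found on either strand in 6 of the 7 members with a window, all except *Nfkbib*, and in 38.2% of all genes.

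In control HSCs all 10 genes were expressed, with between 25 and 944 counts per gene and library across both genotypes. Divided by the deposited gene length, *Rela* was the most abundant member in Cited2 CTL libraries, at 53.0 ± 2.27 CPM per kilobase (SD, n = 5). *Chuk*, the IKK alpha kinase, followed at 43.0 ± 3.00, *Nfkb1* at 41.9 ± 3.12 and *Ikbkb*, the IKK beta kinase, at 36.0 ± 4.26 CPM per kilobase. A middle group held *Nfkbie* at 22.8 ± 2.43, *Ikbkg*, the regulatory IKK subunit NEMO, at 21.3 ± 1.38 and *Nfkbib* at 18.7 ± 1.18 CPM per kilobase. The lowest members were *Relb* at 9.76 ± 2.21, *Rel* at 9.40 ± 2.14 and *Nfkb2* at 8.28 ± 1.68 CPM per kilobase. The ranges of neighbours in this order were separate between *Rela* and *Chuk*, between *Ikbkb* and *Nfkbie* and between *Nfkbib* and *Relb*, and overlapped at the other steps. *Rela* lay at the 82.8th and *Nfkb2* at the 35.7th percentile of tested genes. The highest level was 6.40 times the lowest, or 16.2 times with the longest annotated transcript (7466 bases instead of 2584 for *Rel*) as gene length, which put *Rel* last.

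**Figure D1:**
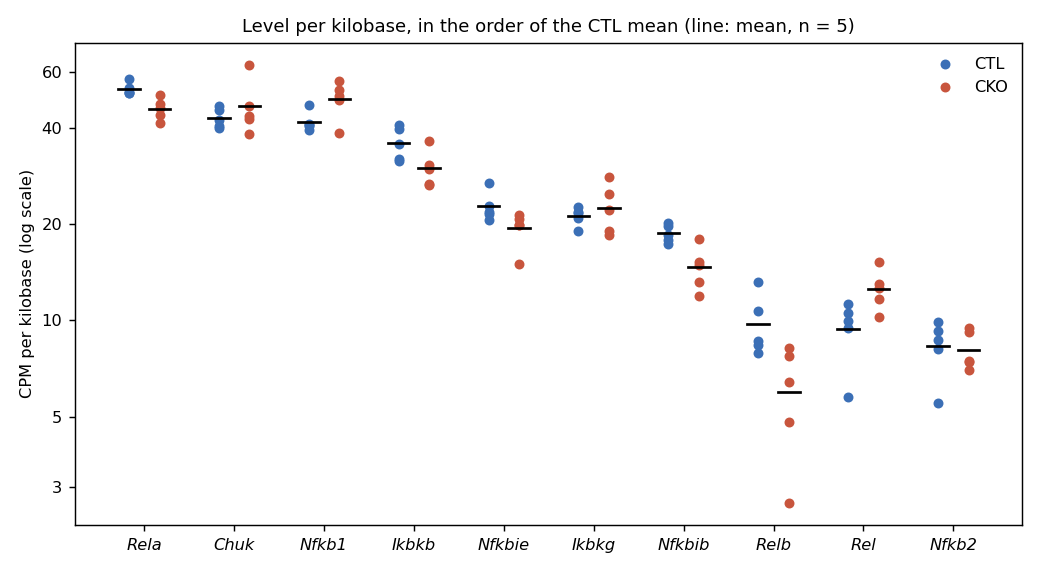
CPM per kilobase of deposited gene length of each member on a log axis, with 1 point per library and a line at the mean of each genotype (n = 5), in the order of the Cited2 CTL means. *Rela* led in Cited2 CTL libraries, *Nfkb1* had the highest Cited2 CKO mean, and *Relb*, *Rel* and *Nfkb2* were lowest in both genotypes.

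The order differed in Cited2 CKO HSCs, where *Nfkb1* led at 49.4 ± 6.60, *Chuk* followed at 47.0 ± 9.57 and *Rela* came next at 46.0 ± 3.49 CPM per kilobase (n = 5). These 3 ranges overlapped. The place of *Chuk* rested on the library labelled CKO 3, without which the order was *Nfkb1* at 52.1 ± 3.19, *Rela* at 46.5 ± 3.83 and *Chuk* at 43.0 ± 3.58 CPM per kilobase (n = 4). *Relb* had the lowest Cited2 CKO level, at 5.96 ± 2.26 CPM per kilobase. Summed by role, the 5 subunits stood at 122 ± 3.2 CPM per kilobase in controls and 122 ± 8.76 in Cited2 CKO libraries, and the 3 IKK genes at 100.3 ± 6.21 and 99.6 ± 9.53. The 2 inhibitors summed to 41.5 ± 3.23 CPM per kilobase in Cited2 CTL libraries (39.2 to 47.0). In Cited2 CKO libraries they summed to 34.0 ± 3.05 (30.2 to 37.9), without overlap. Of single tested genes, 1.98% had every Cited2 CKO library below every control. The sum leaves out *Nfkbia*, the gene of the main inhibitor. Its ranges overlapped, at 107 to 129 CPM in controls and 95.7 to 138 CPM in Cited2 CKO libraries. Transcripts of *Nfkbib* and *Nfkbie* are rich in GC (58.8% and 55.4%). With GC content and length modelled per library, their log2 fold changes moved from -0.36 and -0.23 to -0.13 and -0.05. The sums by role are descriptions and were not tested.

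The genotypes were compared gene by gene across all 14165 genes with edgeR's quasi-likelihood test and Benjamini-Hochberg adjustment, where a gene was called at an adjusted p under 0.05 and a fold change above 20%. None of the 10 members was called, against 32 of all genes (0.226%). At an unadjusted p under 0.05 there were 6 members, against 12.9% of all genes. *Rel* and *Nfkb1* had the higher mean in Cited2 CKO HSCs (5.8% of all genes), and *Rela*, *Relb*, *Nfkbib* and *Ikbkb* the lower (7.08%). DESeq2 also called none of the members and 2.29% of all genes, and limma-voom called none of the members and 28 of all 14165 genes. *Rela* alone had no overlap between the genotypes, as did 3.33% of all genes (1.98% with every Cited2 CKO library below and 1.35% with every one above).

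**Figure D2:**
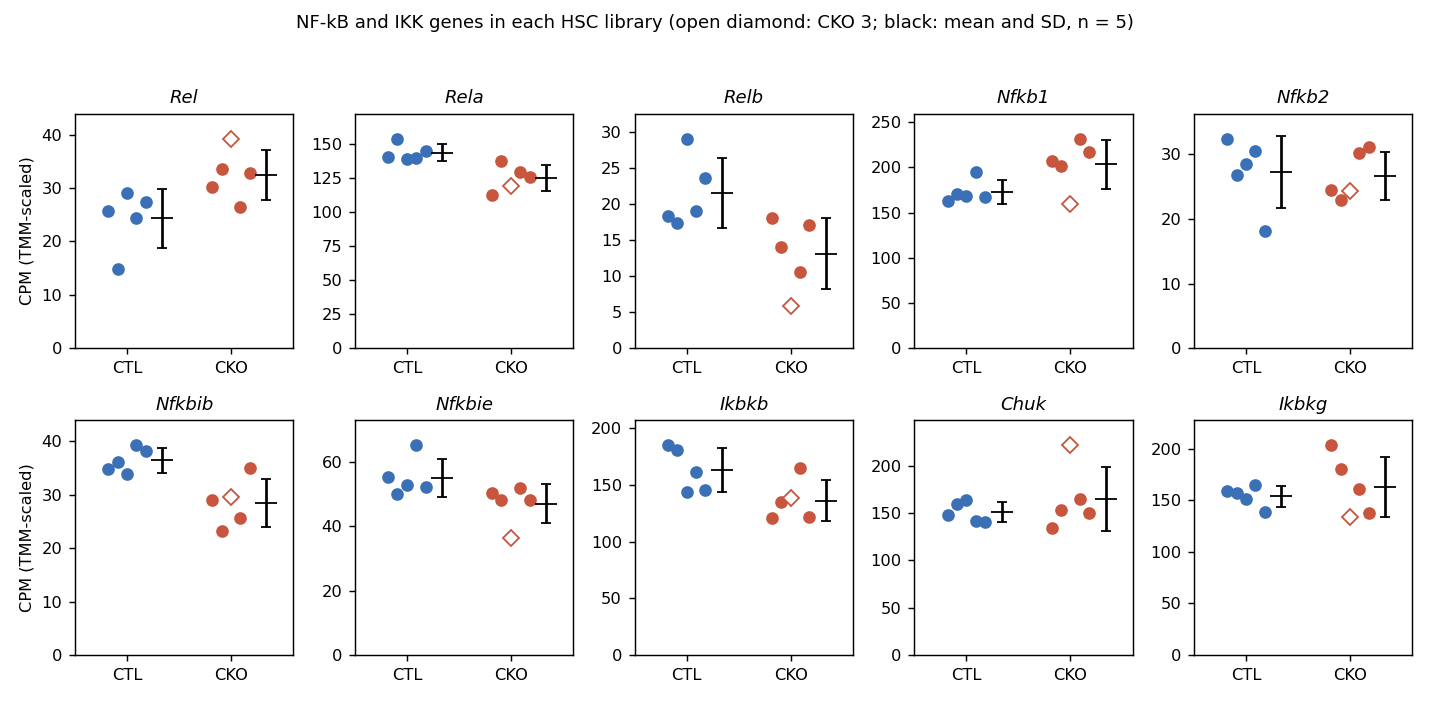
CPM of each member in each library, on axes that start at 0, with the mean and SD of each genotype (n = 5) beside the points and the library labelled CKO 3 as an open diamond. The 5 Cited2 CKO values of *Rela* lie below the Cited2 CTL values, and CKO 3 is lowest for *Relb*, *Nfkb1*, *Nfkbie* and *Ikbkg* and highest for *Rel* and *Chuk*.

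Among the subunits, *Rela* was the most uniform. It was measured at 140.4, 154, 139, 139.7 and 145 CPM in CTL 1 to CTL 5, and at 112, 137, 119, 129 and 126 CPM in CKO 1 to CKO 5. Every Cited2 CKO library thus lay below every Cited2 CTL library, with CKO 2 just under the lowest control. Means were 143.5 ± 6.16 and 125 ± 9.45 CPM (SD, n = 5), a log2 fold change of -0.20 (SE 0.08, 95% interval -0.37 to -0.04, adjusted p = 0.29 by edgeR). Without the library labelled CKO 3 the value was -0.19 (adjusted p = 0.409 by edgeR).

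*Nfkb1* encodes the precursor of the most common partner of the *Rela* product. Its CPM in CTL 1 to CTL 5 was 162.5, 170.2, 168.5, 195 and 167, and in CKO 1 to CKO 5 it was 207, 202, 159, 232 and 217.5. The 4 Cited2 CKO libraries with low *Cited2* exceeded every Cited2 CTL library, whereas the library labelled CKO 3 lay below them all. The log2 fold change was 0.24 (SE 0.09, 95% interval 0.03 to 0.44, adjusted p = 0.322 by edgeR). It was 0.31 without the library labelled CKO 3, with an unadjusted p = 0.00154 and an adjusted p = 0.122 by edgeR, so that *Nfkb1* was not called there either.

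*Rel* and *Relb*, which are among the subunit genes with few counts, had the largest differences in size and the widest intervals. *Rel* stood at 25.8, 14.9, 29.1, 24.4 and 27.3 CPM in CTL 1 to CTL 5 and at 30.2, 33.6, 39.2, 26.5 and 32.7 CPM in CKO 1 to CKO 5. All but CKO 4 of the latter were above the Cited2 CTL maximum, and CTL 2 was the lowest library. The log2 fold change was 0.42 (SE 0.19, 95% interval 0.01 to 0.83, adjusted p = 0.382 by edgeR), and 0.34 without the library labelled CKO 3 (adjusted p = 0.554 by edgeR). *Relb*, whose product pairs mainly with that of *Nfkb2* in the noncanonical branch of the pathway, was measured at 18.4, 17.4, 29.1, 19.01 and 23.6 CPM in CTL 1 to CTL 5. In CKO 1 to CKO 5 it stood at 18.1, 14.1, 5.91, 10.6 and 17.1 CPM, so 4 libraries were below the Cited2 CTL minimum and CKO 1 was above it. The library labelled CKO 3 was lowest, with 25 counts. The log2 fold change of *Relb* was -0.71 (SE 0.29, 95% interval -1.33 to -0.09, adjusted p = 0.33 by edgeR), and -0.52 without the library labelled CKO 3 (adjusted p = 0.437 by edgeR).

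*Nfkb2*, which encodes the precursor processed in the noncanonical branch, stood at 32.4, 26.8, 28.5, 30.5 and 18.2 CPM in CTL 1 to CTL 5 and at 24.5, 23.01, 24.4, 30.3 and 31.1 CPM in CKO 1 to CKO 5. The ranges largely coincided, with CTL 5 lowest of all libraries. Its log2 fold change was -0.03 (SE 0.18, adjusted p = 0.962 by edgeR), and the 95% interval from -0.43 to 0.37 leaves differences of either sign possible.

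Both inhibitor genes had the lower mean in Cited2 CKO HSCs. *Nfkbib*, which encodes IkB beta, was measured at 34.8, 36.1, 33.8, 39.2 and 38.3 CPM in CTL 1 to CTL 5 and at 29, 23.3, 29.6, 25.6 and 35.03 CPM in CKO 1 to CKO 5. All Cited2 CKO libraries except CKO 5 were below the Cited2 CTL minimum. The log2 fold change was -0.36 (SE 0.15, 95% interval -0.67 to -0.04, adjusted p = 0.336 by edgeR), and -0.37 without the library labelled CKO 3 (adjusted p = 0.414 by edgeR). *Nfkbie*, which encodes IkB epsilon, ranged from 50.01 to 65.1 CPM in Cited2 CTL libraries, with a median of 52.9. In CKO 1 to CKO 5 it stood at 50.4, 48.2, 36.4, 51.7 and 48.2 CPM, and 3 of these were below the Cited2 CTL minimum. Its log2 fold change was -0.23 (SE 0.13, 95% interval -0.51 to 0.05, adjusted p = 0.487 by edgeR), and -0.15 without the library labelled CKO 3 (adjusted p = 0.695 by edgeR).

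Of the IKK genes, *Ikbkb*, the kinase of the canonical branch, was measured at 185, 181, 143.5, 161 and 145 CPM in CTL 1 to CTL 5 and at 120.5, 135, 138.5, 165 and 121 CPM in CKO 1 to CKO 5. The Cited2 CKO values were below the Cited2 CTL minimum in every library but CKO 4. The log2 fold change was -0.26 (SE 0.10, 95% interval -0.49 to -0.04, adjusted p = 0.325 by edgeR), and -0.27 without the library labelled CKO 3 (adjusted p = 0.398 by edgeR). *Chuk*, which acts in both branches, ranged from 140 to 164 CPM in Cited2 CTL libraries and stood at 134, 153, 221, 165 and 149.6 CPM in CKO 1 to CKO 5. It was highest in the library labelled CKO 3, and the log2 fold change of 0.13 (SE 0.12, adjusted p = 0.693 by edgeR) was -0.0016 without it (adjusted p = 0.995 by edgeR). *Ikbkg* ranged from 138 to 164 CPM in Cited2 CTL libraries and from 133.5 to 203 CPM in Cited2 CKO libraries, where CKO 1 and CKO 2 exceeded the controls and CKO 3 and CKO 5 lay below them. The log2 fold change of *Ikbkg* was 0.08 (SE 0.11, 95% interval -0.15 to 0.32, adjusted p = 0.796 by edgeR). It was 0.15 without the library labelled CKO 3 and -0.01 without CKO 1.

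The median log2 fold change of the 10 members was -0.12, against 0.01 over all tested genes, with 4 members higher and 6 lower in Cited2 CKO HSCs. For 7 members the 95% interval lay within 1.5-fold in either direction. Without both CKO 2 and CKO 3, none of the members was called, against 28 of 14705 genes. The Cited2 CKO libraries left, CKO 1, CKO 4 and CKO 5, all had Y-linked transcripts and little *Xist*. Among the controls, CTL 2 and CTL 4 had the reverse, so sex is partly confounded with genotype there. In that fit 2 members had an unadjusted p under 0.05 (9.28% of all genes). With the *Xist* level as a covariate none of the members was called, against 28 of 14165 genes, and 5 members had such a p (13.1% of all genes).

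**Figure D3:**
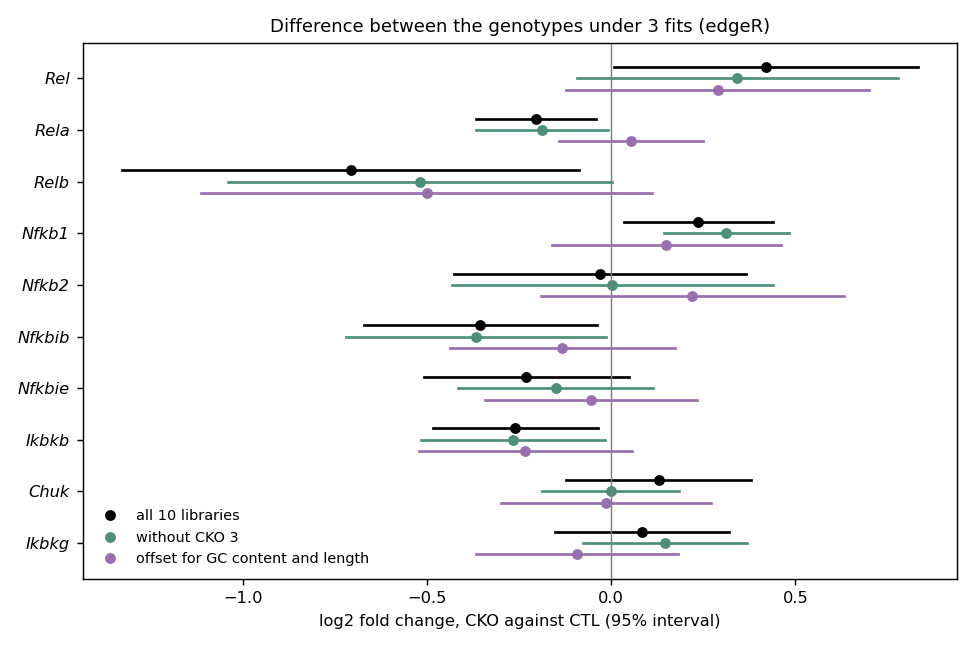
Log2 fold change of each member in Cited2 CKO against Cited2 CTL libraries with its 95% interval, from edgeR with all 10 libraries, without the library labelled CKO 3, and with an offset modelling GC content and gene length. *Relb* has the widest interval, and with the offset *Rela* moves from -0.20 to 0.05.

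With all 10 libraries, the direction of the members followed the GC content of their transcripts, as did the median of all genes. Tested genes were split into 5 equal bins by GC content of the longest transcript. The median log2 fold change was 0.12 in the bin of lowest GC content and -0.19 in that of highest. *Rel* (42.5% GC) and *Chuk* (41.3%) belonged to the lowest bin and *Nfkb1* (44.9%) and *Ikbkg* (44.7%) to the next, and these were the 4 members with the higher Cited2 CKO mean. *Ikbkb* (51.2%) lay in the bin from 50.7% to 54.8%. *Rela* (59.4%), *Relb* (56.8%), *Nfkb2* (59.4%), *Nfkbib* (58.8%) and *Nfkbie* (55.4%) lay in the highest. With *Ikbkb*, these were the 6 with the lower mean. Some of these directions rest on values near 0 or on 1 library. Without the library labelled CKO 3, *Nfkb2* was at 0.0022 and *Chuk* at -0.0016, and without CKO 1 *Ikbkg* was at -0.01. With an offset modelling GC content and gene length within each library, which would also absorb genotype effects that run along with them, no member had an unadjusted p under 0.05 by edgeR, against 6.95% of all genes. There *Rel* had a log2 fold change of 0.29 and *Relb* one of -0.50, with adjusted p-values of 0.839 and 0.789 by edgeR. *Rela* moved to 0.05, *Nfkb1* to 0.15, *Nfkbib* to -0.13, *Nfkbie* to -0.05 and *Ikbkb* to -0.23. The direction turned for *Rela*, for *Nfkb2* (0.22), for *Chuk* (-0.02) and for *Ikbkg* (-0.09).

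**Figure D4:**
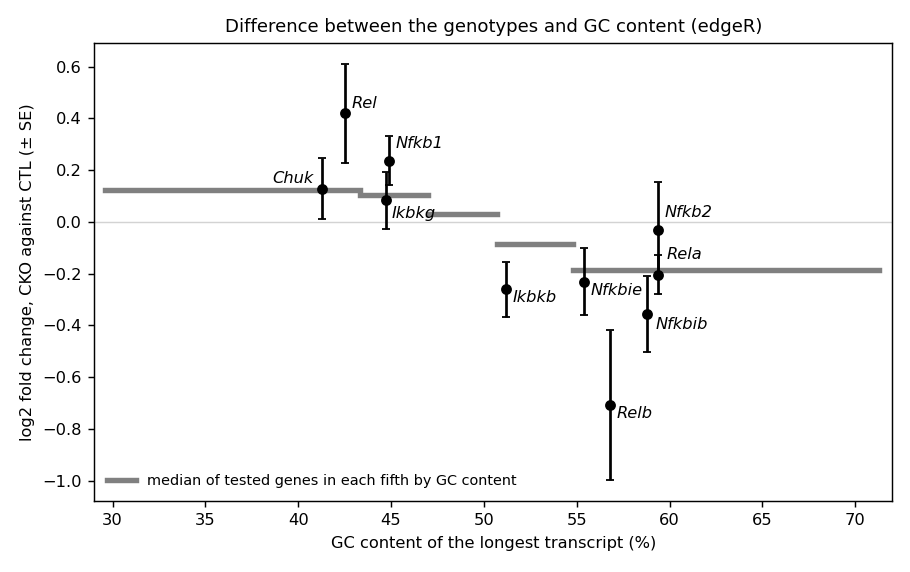
Log2 fold change (with SE) of each member, Cited2 CKO against Cited2 CTL, against the GC content of its longest transcript in percent. Grey lines are the medians of tested genes in each of 5 equal bins by GC content, from 0.12 in the lowest to -0.19 in the highest. With all 10 libraries the 4 members under 45% GC lie above 0, and the 6 above 50% GC lie below, with *Nfkb2* at -0.03.

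Ratios between members within a library were compared as descriptions for 7 pairs. *Nfkb1* to *Rela*, per kilobase, was 0.761, 0.728, 0.797, 0.919 and 0.758 in CTL 1 to CTL 5 and 1.21, 0.969, 0.878, 1.18 and 1.14 in CKO 1 to CKO 5. All Cited2 CKO libraries except the library labelled CKO 3 exceeded the Cited2 CTL maximum. The median ratio of *Ikbkb* to *Chuk* was 0.876 in controls and 0.682 in Cited2 CKO libraries, and that of *Nfkbie* to *Rel* was 2.29 and 1.57. For *Nfkbib* to *Rela* the medians were 0.345 in both genotypes, but the Cited2 CKO median was the value of the library labelled CKO 3. CKO 1, CKO 2, CKO 4 and CKO 5 had 0.360, 0.236, 0.276 and 0.389, against 0.327 to 0.391 in controls. The ranges of the genotypes overlapped in all 7 pairs. The genes of most pairs differ in GC content, whose part in the ratios was not tested.

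The wider pathway was examined in 5 lists, of which 99 of 114 genes were tested. None was called by edgeR, while 6 had the higher and 13 the lower Cited2 CKO mean at an unadjusted p under 0.05 (5.8% and 7.08% of all genes). The median log2 fold change was -0.04. Of the listed genes, 9 belong to 2 lists, so the counts per list below repeat some of them. DESeq2 called 4 of the 99 (*Cxcl10* higher; *Ikbke*, *Gadd45b* and *Tnfaip2* lower), against 2.29% of all genes. Without overlap were *Il1r1*, above, and *Bcl10* and *Tnip1*, below, which is close to the shares over all genes (1.35% above and 1.98% below).

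Among 11 other regulators of the Rel and IkB families, 1 gene had an unadjusted p under 0.05 (12.9% of all genes), the repressor *Nkrf*. It stood at 16.9 ± 7.80 CPM in controls and 27.7 ± 9.86 CPM in Cited2 CKO libraries (n = 5 each), with a log2 fold change of 0.70 (SE 0.31, adjusted p = 0.369 by edgeR). *Nfkbia*, the gene of the main inhibitor IkB alpha and a classical NF-kB target, had 119.7 ± 8.56 and 111 ± 17 CPM, a log2 fold change of -0.11 (SE 0.11, adjusted p = 0.695 by edgeR) that moved to -0.02 with the offset. *Nkiras2*, whose product binds IkB proteins, had a log2 fold change of -0.11 (SE 0.16, adjusted p = 0.816 by edgeR). *Nkrf* was at 0.87 without the library labelled CKO 3 (adjusted p = 0.249 by edgeR), *Nfkbia* at -0.06 and *Nkiras2* at -0.15.

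The 16 IKK-related and upstream kinases and their adaptors included 1 gene higher and 1 lower at an unadjusted p under 0.05 (5.8% and 7.08% of all genes). *Ikbke*, the gene of the IKK-related kinase IKK epsilon, had 59.8 ± 9.76 CPM (43.6 to 69.9) in Cited2 CTL and 40.5 ± 5.10 CPM (36.4 to 49.4) in Cited2 CKO libraries. Its log2 fold change was -0.56 (SE 0.14, 95% interval -0.87 to -0.25), with an adjusted p = 0.118 by edgeR and 0.0259 by DESeq2. The library labelled CKO 3 had the highest Cited2 CKO value, without which the log2 fold change was -0.64 (adjusted p = 0.0938 by edgeR). *Tab2*, an adaptor of the kinase TAK1, had a log2 fold change of 0.39 (SE 0.14, adjusted p = 0.275 by edgeR), and *Tank*, an adaptor of the IKK-related kinases, one of 0.19 (SE 0.10, adjusted p = 0.417 by edgeR). With the GC content and length offset *Tank* moved to 0.03, while *Ikbke* was at -0.53 (adjusted p = 0.469 by edgeR). *Tab2* was at 0.46 and *Tank* at 0.27 without the library labelled CKO 3 (adjusted p = 0.193 and 0.208 by edgeR).

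Of 19 tested receptors and adaptors, 13 had the lower Cited2 CKO mean, as did 6934 of the 14165 tested genes, and the median log2 fold change was -0.17. At an unadjusted p under 0.05, 1 was higher and 3 were lower (5.8% and 7.08% of all genes). *Il1r1*, the receptor of interleukin-1, ranged from 15.4 to 34.8 CPM in controls and from 37.8 to 63.1 CPM in Cited2 CKO libraries, without overlap. Its log2 fold change was 0.71 (SE 0.22, 95% interval 0.23 to 1.18, adjusted p = 0.208 by edgeR). It was 0.54 without CKO 2, its highest library (adjusted p = 0.418 by edgeR). The GC content and length offset gave 0.57 (adjusted p = 0.603 by edgeR). *Bcl10*, an adaptor of antigen-receptor signaling to IKK, ranged from 75.6 to 87.4 CPM and from 62.6 to 74.7 CPM, with a log2 fold change of -0.27 (SE 0.09, adjusted p = 0.252 by edgeR). *Traf1*, a signaling adaptor of TNF receptors and an NF-kB target, had a log2 fold change of -0.68 (SE 0.29, adjusted p = 0.352 by edgeR). *Il1r1* was at 0.75 without the library labelled CKO 3, *Bcl10* at -0.25 and *Traf1* at -0.69.

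In the ubiquitin system of the pathway, 23 genes were tested, with 1 higher and 4 lower at an unadjusted p under 0.05 (5.8% and 7.08% of all genes). *Tnfaip3*, the gene of the inhibitory enzyme A20, ranged from 27.1 to 67.8 CPM in controls and from 62.9 to 87.6 CPM in Cited2 CKO libraries. Its log2 fold change was 0.61 (SE 0.19, adjusted p = 0.218 by edgeR). *Tnip1* and *Tnip2*, whose products bind A20, had the opposite sign, with log2 fold changes of -0.42 (SE 0.14) and -0.34 (SE 0.12) and adjusted p-values of 0.246 and 0.276 by edgeR. With the GC content and length offset *Tnip1* moved to -0.19 and *Tnip2* to -0.20, while *Tnfaip3* was at 0.55. *Tnfaip3* was at 0.66 without the library labelled CKO 3, *Tnip1* at -0.31 and *Tnip2* at -0.28. Without CKO 2 and CKO 3 together *Tnip1* was at -0.26.

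In the list of NF-kB target genes, the largest of the 5, *Cxcl10*, *Gadd45b* and *Tnfaip2* had the smallest p. Their log2 fold changes were the largest in size of the named list genes, a rank that choosing by p from a larger list favors. *Traf1*, *Tnfaip3*, *Tnip1* and *Nfkbia*, named above, are in this list too. Of 38 tested, 3 were higher and 7 lower at an unadjusted p under 0.05 (5.8% and 7.08% of all genes). The median log2 fold change of the list was -0.06. *Cxcl10*, a chemokine gene also induced by interferon, ranged from 5.00 to 21.7 CPM in controls and from 15.6 to 42.4 CPM in Cited2 CKO libraries. Its log2 fold change was 1.23 (SE 0.35, 95% interval 0.48 to 1.98), with an adjusted p = 0.162 by edgeR and 0.037 by DESeq2. *Gadd45b*, a stress response gene, ranged from 14.1 to 26.5 CPM and from 6.18 to 15.0 CPM, with a log2 fold change of -0.98 (SE 0.28) and an adjusted p = 0.152 by edgeR and 0.0399 by DESeq2. *Tnfaip2*, a gene induced by TNF, ranged from 48.1 to 104 CPM and from 23.5 to 66.0 CPM, with a log2 fold change of -0.87 (SE 0.25) and an adjusted p = 0.168 by edgeR and 0.0416 by DESeq2. Without the library labelled CKO 3, the adjusted p-values of *Cxcl10*, *Gadd45b* and *Tnfaip2* were 0.197, 0.222 and 0.104 by edgeR. Their log2 fold changes there were 1.26, -0.93 and -1.05. The GC content and length offset gave 1.16, -0.85 and -0.65, with adjusted p-values of 0.506, 0.506 and 0.618 by edgeR.

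**Figure D5:**
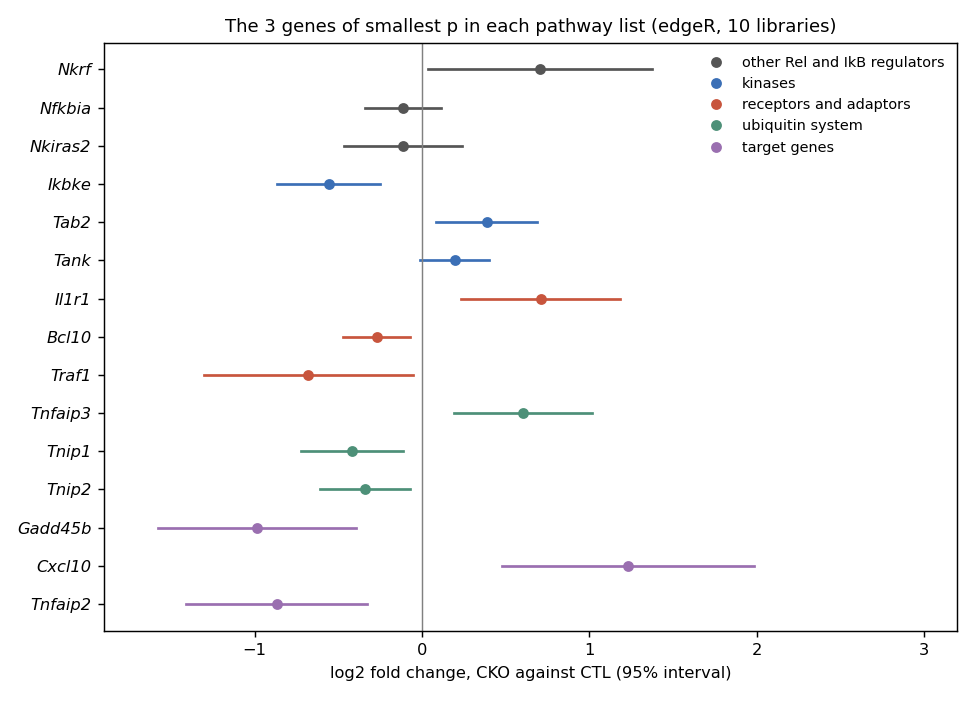
Log2 fold change with its 95% interval, Cited2 CKO against Cited2 CTL (edgeR, 10 libraries), of the 3 tested genes with the smallest p in each of the 5 pathway lists, colored by list. The genes lie on both sides of 0, from -0.98 (*Gadd45b*) to 1.23 (*Cxcl10*), and none was called by edgeR.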

How the data were processed

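The 10 RNA-seq libraries of sorted HSCs, 5 per genotype, were grouped by the genotype in their labels. The authors used HISAT2 v.2.1.0 for alignment to GRCm38 and Rsubread v.2.0.1 for counting, and deposited raw counts per gene symbol and gene lengths. The annotation, the use of strand and the handling of multi-mapping reads are not given in the sources used here. The paper mentions no molecular identifiers. Totals of 3058690 to 4548795 counts limit the precision of low counts. They are far below the reads per sample that the paper reports, and the reason is not given in the sources used here.

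Tests used edgeR 4.0.16 in R 4.3.3 (filterByExpr, TMM, quasi-likelihood F test with robust dispersion, Benjamini-Hochberg adjusted p under 0.05, fold change over 20%). The series' design gives 1 sample per mouse, in which case p-values measure the spread between mice. For CKO 2 this is in doubt, because it holds both *Xist* and Y-linked transcripts. CPM are scaled by TMM without a prior count, fold changes were fitted by edgeR, and levels between genes were divided by the deposited length. Gene positions, overlaps and GC content came from GENCODE M21. The scripts were tested on simulated data.

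The members and lists were chosen with earlier results of these data known. Named were the 10 members, *Cited2*, and from each of 5 lists every called gene and the 3 tested genes with the smallest p. Alternatives were DESeq2 1.42.0, limma-voom (limma 3.58.1), other size factors and filters, other thresholds, an offset modelling GC content and gene length, *Xist* as a covariate, a replicate block and each library left out. Leaving out CKO 2 and CKO 3 together was added after seeing the data. *Cd48* was named after its value was seen.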

Additional observations from a re-analysis of the deposited data

Results flagged for a closer look

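In 7 of 52 groups of 5 libraries examined (26 genes in both genotypes), the highest or the lowest library stood apart from the other libraries of its group by Dixon's test, which chance alone does in about 1 in 20 groups. *Nfkb1* was at 195 CPM in CTL 4, against at most 170.2 in the other Cited2 CTL libraries. In the library labelled CKO 3, *Nfkbie* was at 36.4 CPM, against at least 48.2 in the other Cited2 CKO libraries. The same library had the highest Cited2 CKO value of *Ikbke*, 49.4 CPM against at most 39.4, and of *Cited2*, 120.1 CPM against at most 8.30. *Nkrf* was at 30.4 CPM in CTL 5, against at most 15.7 in the other Cited2 CTL libraries, and *Tnip1* was at 61.5 CPM in CTL 5, against at most 54.7. *Il1r1* was at 63.1 CPM in CKO 2, against at most 41.7 in the other Cited2 CKO libraries.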

How the results depend on the processing

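None of the 10 members was called under any alternative. Over all genes edgeR called 32, DESeq2 325, edgeR with an offset modelling GC content and gene length 8, with the offset and the replicate block 12, with an adjusted p under 0.01 8, and 8 to 42 with 1 library left out. No list gene was called under any alternative except DESeq2, which called 4. The highest member level was 6.40 times the lowest, 16.2 times with the longest transcript as length and 5.89 to 6.75 times with 1 library left out. The log2 fold changes of 6 members kept their sign in all 21 alternatives, namely *Rel*, *Relb*, *Nfkb1*, *Nfkbib*, *Nfkbie* and *Ikbkb*. The offset turned *Rela* to 0.055, *Nfkb2* to 0.22, *Chuk* to -0.015, *Ikbkg* to -0.094 and *Nkiras2* to 0.080. With the offset and the replicate block these were 0.052, 0.24, -0.036, -0.0997 and 0.053. *Nfkb2* was at 0.012 with limma-voom. Without CKO 2 and CKO 3 together *Nfkb2* was at 0.072, *Chuk* at -0.012 and *Nfkbia* at 0.0015. With 1 library left out *Nfkb2* lay between -0.15 and 0.030 (above 0 without CTL 1, CTL 4, CKO 2 or CKO 3), *Chuk* between -0.0016 (without CKO 3) and 0.19, *Ikbkg* between -0.011 (without CKO 1) and 0.15, and *Nkiras2* between -0.21 and 0.0014 (without CKO 5). The cause was not tested.

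Replicate numbers 1 to 5 recur in the labels of both genotypes. Deviations of same-numbered libraries correlated at -0.08 to 0.19, and 3 of 10 libraries correlated best with their own number, so the numbers were not taken as pairs. With the replicate block 24 genes, 0 members and 0 list genes were called by edgeR, and 5 members had an unadjusted p under 0.05, against 12.1% of all genes in that fit. Members with few counts (*Rel*, *Relb*, *Nfkb2*) have the widest intervals at this depth.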
